A study of Mus musculus with 12 samples.

Results

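The receptors described here are 9 members of the tumour necrosis factor (TNF) receptor family: Tnfrsf12a, the receptor of the cytokine TWEAK, with Tnfrsf10b, Eda2r, Fas, Tnfrsf1a, Tnfrsf21, Tnfrsf1b, Ltbr and Tnfrsf23. Every probe set annotated to 1 of these symbols and to no other was read. That gave 12 of 22626 probe sets for 8 of the genes on the smaller array design, 430A, and 13 of 45037 for all 9 on the larger one, 430 2.0, which alone carried Eda2r. The receptors were selected on their signals in these same data, above all on the differences of livers off the drug from normal livers, where Tnfrsf12a was known to lie among the largest increases on 430A. Their differences from normal liver are therefore given as a description with standard errors and without p-values.

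The study measured liver RNA of 10-week-old mice on 12 Affymetrix arrays. Fah encodes the last enzyme of tyrosine breakdown, and Fah knockout mice are kept healthy by NTBC, a drug that blocks an earlier step of the same pathway. On 430A, 3 livers came from Fah knockout mice off NTBC for 14 days and 2 from mice lacking both Fah and p21, the cell cycle inhibitor encoded by Cdkn1a, also off NTBC for 14 days. The normal group of 4 livers mixed genotypes: in the order used below, replicate 1 was wildtype and drank water, replicate 2 was wildtype and received NTBC, replicate 3 lacked Fah and replicate 4 lacked Fah and p21, both of these on NTBC. The last 2 therefore carry the same deletions as the mice off NTBC. On 430 2.0 there was 1 normal liver, a Fah, p21 knockout on NTBC, and 2 Fah, p21 knockout livers off NTBC, called double knockout livers from here on. The normal liver carries replicate number 4 on both designs, but the labels do not say whether it is the same mouse. They also give no strain, sex or source of the knockout alleles.

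Receptors of this family bind trimeric ligands at the cell surface. Those with a cytoplasmic death domain, such as Fas, Tnfrsf1a, Tnfrsf10b and Tnfrsf21, can assemble complexes around the adaptors Fadd or Tradd that activate caspase-8. Among those without a death domain, Tnfrsf12a, Tnfrsf1b, Ltbr and Eda2r bind TRAF proteins and feed NF-kB and stress kinase pathways. In liver, Tnfrsf12a is known for its induction after injury and for the expansion of ductular progenitor cells driven by TWEAK, and Fas and Tnfrsf1a are known for hepatocyte killing.

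The DNA ahead of 4 of these genes is printed first, for the receptor with the largest difference on both designs, for the receptor carried by 430 2.0 alone, and for the linked pair Tnfrsf1a and Ltbr, whose signals differed little on 430A. Each sequence is the 200 bases just before the annotated gene start in the RefSeq promoter table of GRCm38.p6, printed 5′ to 3′ on the gene's strand. Capitals mark every match to GGGCGG, the GC box bound by Sp1, or to TATAAA, the TATA box, on either strand, so a GC box on the other strand reads CCGCCC. The positions are chr17:23677450-23677649 for Tnfrsf12a (minus strand), chrX:97377235-97377434 for Eda2r (minus strand), chr6:125349523-125349722 for Tnfrsf1a (plus strand) and chr6:125313886-125314085 for Ltbr (minus strand). Ltbr and Tnfrsf1a lie on the same chromosome on either side of Scnn1a.
Tnfrsf12a: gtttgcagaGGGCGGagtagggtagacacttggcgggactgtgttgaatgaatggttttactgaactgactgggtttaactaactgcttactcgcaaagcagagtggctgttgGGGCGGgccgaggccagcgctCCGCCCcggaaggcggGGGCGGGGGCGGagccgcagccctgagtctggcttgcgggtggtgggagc
Eda2r: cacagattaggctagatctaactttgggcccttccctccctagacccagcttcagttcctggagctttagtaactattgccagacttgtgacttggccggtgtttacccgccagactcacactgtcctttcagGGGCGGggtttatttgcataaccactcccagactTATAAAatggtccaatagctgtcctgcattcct
Tnfrsf1a: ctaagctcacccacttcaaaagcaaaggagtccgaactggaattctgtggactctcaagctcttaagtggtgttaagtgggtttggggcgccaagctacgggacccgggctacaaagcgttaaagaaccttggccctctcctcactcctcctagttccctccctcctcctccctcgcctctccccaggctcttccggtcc
Ltbr: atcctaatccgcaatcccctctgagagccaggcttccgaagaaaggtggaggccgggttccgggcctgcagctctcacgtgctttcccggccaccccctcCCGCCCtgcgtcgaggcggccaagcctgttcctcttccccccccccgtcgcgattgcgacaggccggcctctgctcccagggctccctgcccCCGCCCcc
The Tnfrsf12a stretch held 5 GC boxes and no TATA box, and 63.0% of its bases were G or C. The Eda2r stretch held 1 GC box and 1 TATA box at 49.5% G or C. Tnfrsf1a held none of either motif at 56.5%, and Ltbr 2 GC boxes at 70.5%. Several GC boxes thus stood ahead of both Tnfrsf12a and Ltbr.

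Over the 250 bases before the start, 8 of the 9 receptors had an entry in the promoter table. GGGCGG on either strand was found in 7 of these 8, Tnfrsf1a being the exception, against 32.7% of all 32851 promoters. The share of G or C in the 8 windows ran from 44.8% to 69.2%, beside a median of 52.4% over all promoters. Its part in the GGGCGG matches was not tested. TATAAA was found in 2 of 8, Eda2r and Tnfrsf23, against 12.4%. TGANTCA, the site of AP-1, was found in Fas only, against 6.75%. Neither the NF-kB consensus, held by 7.25% of all promoters, nor the p53 half-site, held by 7.13%, was found in any of the 8. A match describes the letters and is not a bound site, and the absence of a match covers this window alone.

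The genotypes were first checked on the deleted genes. Wildtype livers read 6868.1 and 7120.1 for Fah, and all 7 livers of mice lacking Fah on 430A read between 100.8 and 233. Of the 2 Cdkn1a probe sets read, 1421679_a_at gave 989.5, 1861.5 and 1195.5 in the Fah knockout livers off NTBC and 9.5 and 8.2 where p21 was deleted as well. The other, 1424638_at, gave 2814, 3675.9 and 3935.7 in the former and still 1827.6 and 2059.6 in the latter, so the probe sets of this gene disagree on the deletion; where they lie relative to the deleted part was not determined here.

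Tnfrsf12a had the largest differences of the 9 receptors in each comparison with normal liver. Its probe set 1418571_at gave signals of 30.7, 11.1, 37 and 13.7 in the 4 normal livers, in replicate order. It gave 1316.6, 965.3 and 2199.8 in the Fah knockout livers off NTBC and 1738.1 and 1224.9 in their double knockout counterparts. Every liver off NTBC was thus far above every normal liver, and the wildtype and NTBC-treated knockout livers lay at the same dim level. On the log2(signal + offset) scale, with an offset of 9.9 on 430A that shrinks differences of dim probe sets, the Fah knockout livers were 5.51 ± 0.33 (SE) above normal, a 45.5-fold difference. The double knockout livers were 5.56 ± 0.38 above normal, or 47.1-fold.

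The other Tnfrsf12a probe set, 1418572_x_at, read 6.1, 6.5, 6.6 and 8.0 in the normal livers. Its readings were 973, 750.3 and 2143.2 in the Fah knockout livers off NTBC and 1086.6 and 1180.2 in the double knockout livers. The differences from normal were 6.13 ± 0.29 and 6.10 ± 0.33, and both groups again lay clear of the normal livers. All normal values of both probe sets were far under the level that a probe set had to reach, 73.8 to 100 depending on the array, to count as expressed in the filter used here. The size of the fold therefore rests on how such dim values are treated. Without the offset the 4 differences were between 6.11 and 7.42, and with an offset at the 25th percentile they were between 4.55 and 4.69.

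The same receptor was high in the other double knockout livers measured on 430 2.0. Probe set 1418571_at gave 18.3 in the normal liver and 1275.4 and 1595.9 off NTBC, a difference of 6.02 ± 0.30. Probe set 1418572_x_at gave 57.6 in the normal liver and 1222.5 and 1607.8 off NTBC, a difference of 4.52 ± 0.29. The livers off NTBC were alike on both probe sets, and the smaller difference of the latter came with its higher reading in the single normal liver. Signals of the designs were scaled apart and are not set against each other.

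**Figure D1:**
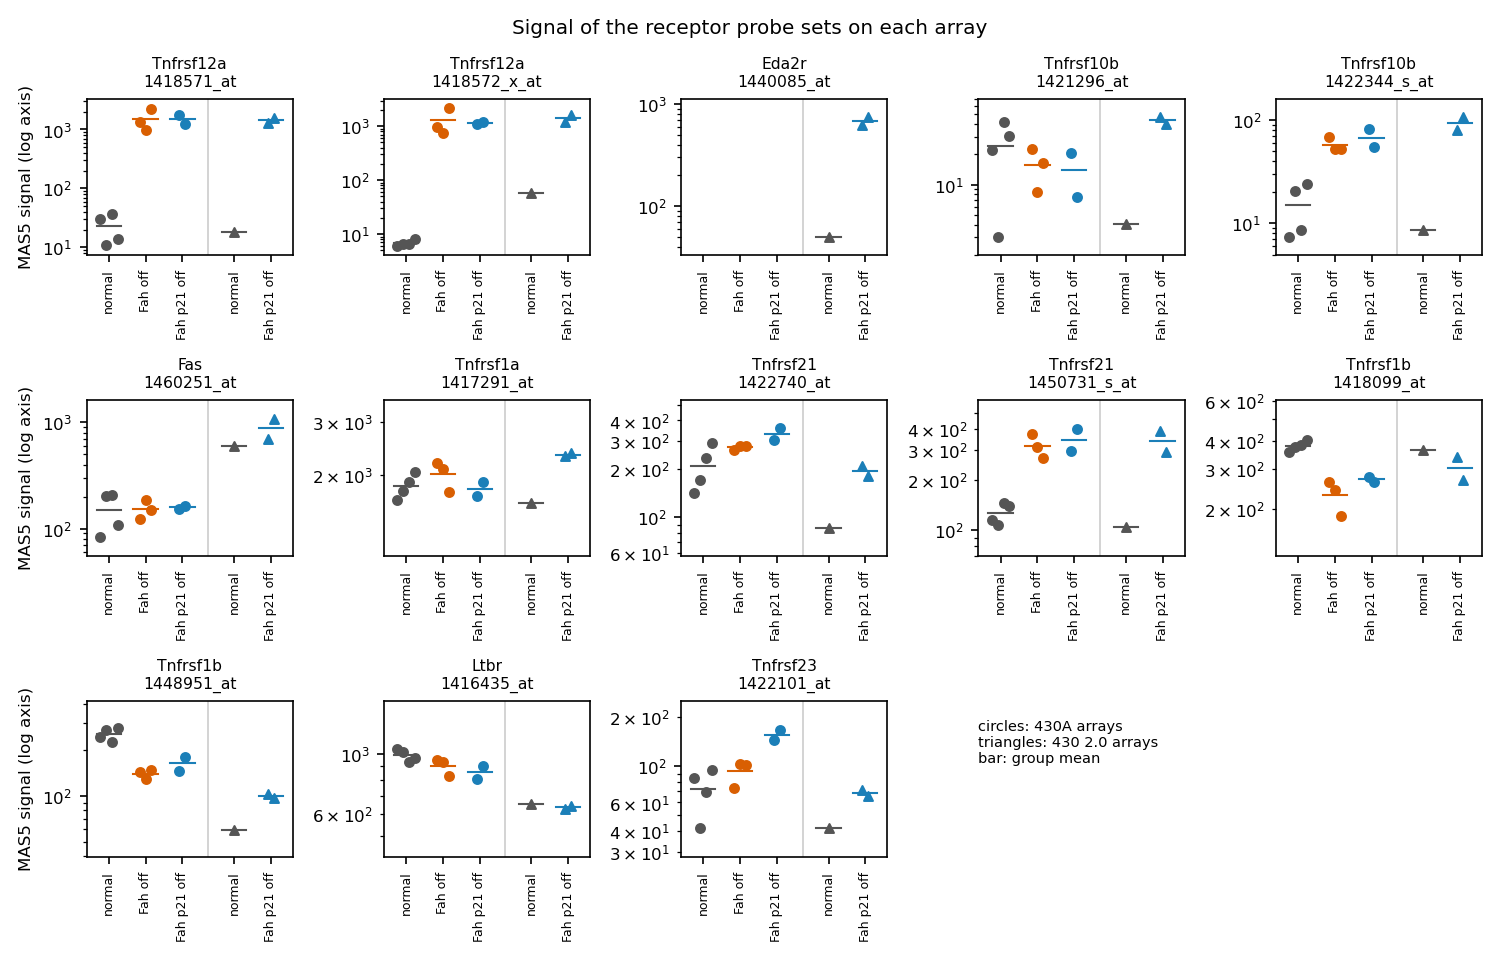
MAS5 signal (log axis) of each receptor probe set on every array, circles for 430A and triangles for 430 2.0, with a bar at the group mean; grey is normal, orange Fah knockout off NTBC and blue double knockout off NTBC. Tnfrsf12a sits between 6.1 and 37 in normal livers on 430A and between 750.3 and 2199.8 in livers off NTBC, while Ltbr spans 807 to 1038.8 over all 430A arrays.

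Eda2r, the receptor of an isoform of ectodysplasin A and a known p53 target, was read by 1440085_at on 430 2.0 only. Its signal was 50.1 in the normal liver and 626 and 744.5 in those off NTBC, both double knockouts. The difference was 3.67 ± 0.30, or 12.7-fold, and over the alternatives tried it ranged from 3.43 to 3.77. Its level in Fah knockout livers with intact p21 was not measured by a probe set read here.

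Tnfrsf10b is the mouse receptor of the death ligand TRAIL and also a known p53 target. Its probe set 1422344_s_at read 7.4, 20.5, 8.7 and 24.1 in normal livers, 67.8, 52.2 and 52.1 in Fah knockout livers off NTBC and 80.8 and 54.3 in double knockout livers off NTBC. The groups off NTBC did not overlap with normal, by 1.48 and 1.67 on the log2 scale, but all 9 values lay under the filter level, so the probe set entered no fit on 430A. On the larger design it read 8.6 in the normal liver and 79.6 and 106.4 off NTBC, a difference of 2.95 ± 0.59. Over the alternatives, which differ most by the offset, this difference ran from 2.20 to 3.42.

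The other Tnfrsf10b probe set, 1421296_at, gave no such gap on 430A. It read 22.3, 3, 41.7 and 30.6 in normal livers, 22.7, 8.5 and 16.3 in Fah knockout livers off NTBC and 20.7 and 7.5 in double knockout livers, so that all groups overlapped. The larger design gave 4.1 in the normal liver and 47.3 and 39.9 off NTBC, a difference of 2.58 ± 0.81, with a range of 1.63 to 3.41 over the alternatives. Both probe sets passed the filter on 430 2.0 only through the livers in which they were high, so their common sign there carries no weight, and on 430A they disagreed.

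Fas, the death receptor of Fas ligand, did not separate the groups on 430A. The signal of 1460251_at was 82.6, 203.6, 206.1 and 109.1 in normal livers, 122.4, 187.3 and 151 in Fah knockout livers off NTBC and 154.2 and 163.8 in double knockout livers. All values off NTBC fell inside the normal range, with differences of 0.10 ± 0.30 and 0.17 ± 0.34. The normal group was itself wide, and its 2 mice with the highest Fas signal were a wildtype and a Fah knockout, both on NTBC. The other normal mouse on NTBC, a double knockout, read 109.1. On 430 2.0 the signal was 593.9 in the normal liver and 700.8 and 1082.9 off NTBC, a difference of 0.55 ± 0.32.

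Tnfrsf1a, the main signalling receptor of TNF, was bright and even. Its probe set 1417291_at read 1658.2, 1779.9, 1898.1 and 2053.4 in normal livers, 2198.6, 2103.4 and 1764.3 in Fah knockout livers off NTBC and 1704.5 and 1902 in double knockout livers. The differences were 0.13 ± 0.13 and -0.03 ± 0.14, with overlapping groups. The normal liver on 430 2.0 read 1627.4 and those off NTBC 2320.3 and 2358.7, a difference of 0.52 ± 0.22. The single normal liver on 430 2.0 enters this difference alone, without a spread of its own.

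Tnfrsf21, death receptor 6, was higher off NTBC by 1 probe set more than by the other. For 1450731_s_at the normal livers gave 115.1, 107.1, 144.8 and 138.3, the Fah knockout livers off NTBC 372.4, 311.1 and 268.9, and the double knockout livers 294.1 and 398.9. No liver off NTBC overlapped with normal, and the differences were 1.26 ± 0.18 (2.40-fold) and 1.38 ± 0.20 (2.61-fold). On 430 2.0 it gave 104.5 in the normal liver and 387.6 and 292.9 off NTBC, a difference of 1.65 ± 0.33.

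The second Tnfrsf21 probe set, 1422740_at, was already uneven within the normal group. Wildtype livers read 141 and 171.1 and NTBC-treated knockouts 232.3 and 288.2, with 263.7, 278.3 and 275.9 in Fah knockout livers off NTBC and 302.4 and 358 in double knockout livers. The Fah knockout livers off NTBC overlapped with the double knockout liver on NTBC, and the difference from normal was 0.42 ± 0.22. In double knockout livers it was 0.69 ± 0.24 on 430A, and on 430 2.0, where the signals were 86 against 209.6 and 179.9, it was 1.14 ± 0.36.

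Tnfrsf1b, the second TNF receptor, which lacks a death domain and is strongest on leukocytes and endothelium, had lower signal off NTBC on 430A by both of its probe sets. Probe set 1418099_at read 357, 374, 383.6 and 404.4 in normal livers, 262.5, 243.2 and 185.4 in Fah knockout livers off NTBC and 277.5 and 263.6 in double knockout livers. Probe set 1448951_at read 241.3, 270, 225.5 and 279 in normal livers, 143.1, 128.7 and 147.3 in Fah knockout livers and 146 and 179.2 in double knockout livers. Both probe sets left every liver off NTBC under every normal liver. The differences of the Fah knockout livers were -0.71 ± 0.15 and -0.82 ± 0.15, and those of the double knockout livers -0.47 ± 0.17 and -0.61 ± 0.17.

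On 430 2.0 the Tnfrsf1b probe sets disagreed. There 1418099_at read 362.9 in the normal liver and 339.4 and 269.4 off NTBC, a difference of -0.26 ± 0.30. The signal of 1448951_at was 59.3 in the normal liver and 102.4 and 96.6 off NTBC, a difference of 0.71 ± 0.43. No direction for this receptor in double knockout livers is therefore given over both designs.

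Ltbr, the lymphotoxin beta receptor, differed from normal by small amounts. On 430A, 1416435_at read 1038.8, 1012.3, 931.2 and 961.4 in normal livers, 950.6, 934.8 and 828 in Fah knockout livers off NTBC and 807 and 900.8 in double knockout livers. The Fah knockout livers overlapped with normal, at -0.12 ± 0.12, while both double knockout livers lay under every normal liver, at -0.21 ± 0.13. Of all probe sets tested on 430A, 19% lay under every normal liver in this way in double knockout livers. Over the alternatives tried the difference of Ltbr in double knockout livers ran from -0.45 to -0.13. For 430 2.0 the signal was 653.4 in the normal liver and 627.9 and 644.2 off NTBC, a difference of -0.04 ± 0.25.

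Tnfrsf23, a TRAIL receptor without a death domain, was highest in double knockout livers on 430A. Its probe set 1422101_at read 84.3, 42, 69.6 and 94.5 in normal livers, 73.6, 102.8 and 102.1 in Fah knockout livers off NTBC and 145.1 and 166.4 in double knockout livers. Double knockout livers lay above all others, at 1.05 ± 0.30 (2.07-fold) over normal, while the Fah knockout livers overlapped with normal at 0.35 ± 0.26. On 430 2.0 it read 41.8 in the normal liver and 71.3 and 66.1 off NTBC, a difference of 0.67 ± 0.51. Tnfrsf22, its close copy and neighbour in the genome, read 132.9, 167, 121 and 184.4 in normal livers, 187, 194.1 and 175.5 in Fah knockout livers off NTBC and 233.1 and 181.8 in double knockout livers. Probe sequences were not compared here, so whether these probe sets tell the genes apart was not tested.

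**Figure D2:**
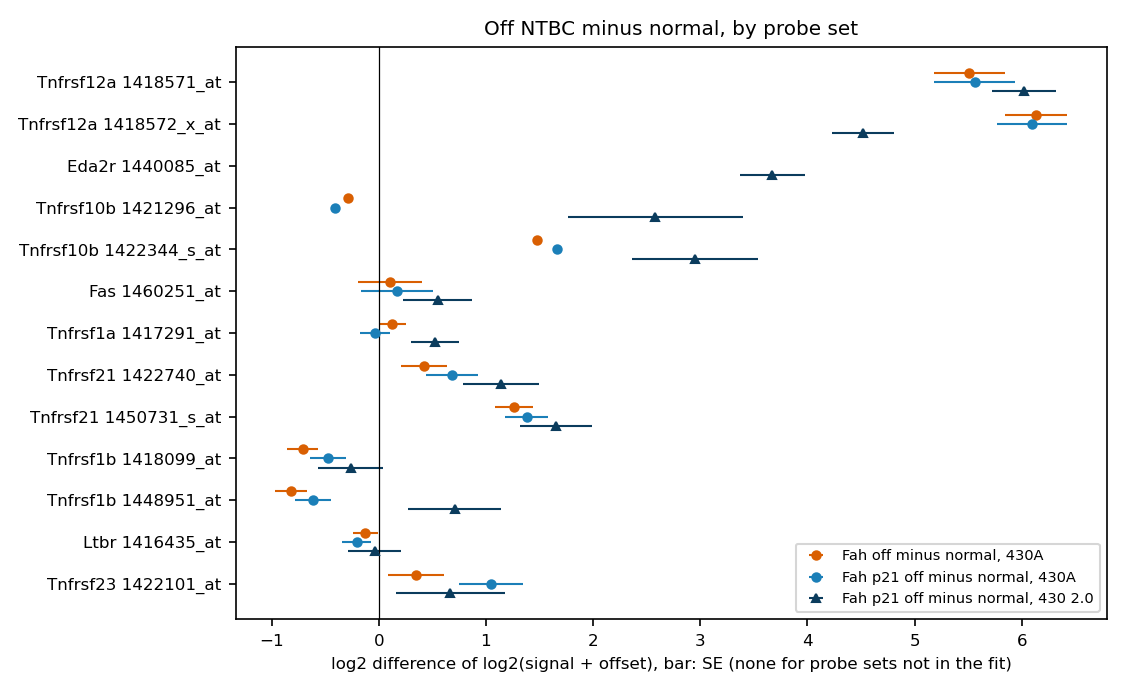
Difference of mean log2(signal + offset) between livers off NTBC and normal livers for each receptor probe set, with the SE as a bar where the probe set entered the fit; orange is Fah knockout and light blue double knockout on 430A, and dark triangles are double knockout on 430 2.0. Tnfrsf12a lies between 4.52 and 6.13, Eda2r at 3.67, and the Tnfrsf1b probe sets below 0 on 430A and on both sides of 0 on 430 2.0.

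Over the receptors as a group, 10 probe sets of 7 genes on 430A and all 13 on 430 2.0 entered the fits. In Fah knockout livers off NTBC 3 of the 10 passed as higher and 2 as lower than normal at a limma adjusted p under 0.05, where 35.5% of all 15307 probe sets tested passed, 20.1% as higher and 15.4% as lower. In double knockout livers 4 passed as higher and 1 as lower, against 28.4% of all, 17.7% and 10.7% by direction. On 430 2.0, 5 of 13 passed as higher and none as lower, against 11.5% of all 26925, 7.71% and 3.8% by direction. Groups did not overlap with normal for 5 of the 10 in Fah knockout livers and 8 in double knockout livers, against 42.1% and 47.5% of all probe sets. On 430 2.0, with 1 normal liver, this held for all 13, against 79.8% of all. The choice of the receptors used these contrasts, so nothing is read from these shares. The median difference of the probe sets tested was 0.24, 0.43 and 1.14 in the 3 comparisons, beside 0.02, 0.11 and 0.07 over all probe sets. These medians rest on the same choice. They also include probe sets of Tnfrsf12a, and on 430 2.0 of Tnfrsf10b, that passed the filter only through livers off NTBC. Nothing is read from the medians either. Of all probe sets that passed in double knockout livers on 430A, 62.4% were higher, against 51.7% after quantile normalization and 39.3% after scaling the arrays to a common median, which moved the median of all probe sets by -0.13 and -0.23.

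The effect of p21 loss among livers off NTBC was then tested by limma over all probe sets. The receptors were chosen with these same arrays in view, so this is no independent sample of genes. None of the 10 receptor probe sets differed between double and single knockout livers by limma, at adjusted p-values from 0.604 to 0.985. Across the array 6 of 15307 probe sets passed (0.0392%), and 1234 had an unadjusted p under 0.05. For Tnfrsf12a the difference was 0.05 (95% interval -0.83 to 0.92) by 1418571_at and -0.04 (-0.80 to 0.72) by 1418572_x_at. With 3 livers against 2 these intervals still hold differences of over 1.5-fold in both directions. The tightest intervals were those of Ltbr, -0.08 (-0.39 to 0.23), and Tnfrsf1a, -0.16 (-0.49 to 0.17).

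Tnfrsf23 had the largest difference in this comparison, 0.70 ± 0.31 (95% interval 0.01 to 1.39), with both double knockout livers above all 3 single knockout livers. Its limma adjusted p over all probe sets was 0.604. Groups did not overlap for 3 of the 10 receptor probe sets, against 28% of all probe sets. The Tnfrsf21 probe sets differed by 0.26 (-0.30 to 0.83) and 0.12 (-0.35 to 0.59), those of Tnfrsf1b by 0.24 (-0.15 to 0.62) and 0.20 (-0.19 to 0.59), and Fas by 0.07 (-0.71 to 0.85). A p that misses the threshold does not show that the receptors respond alike with and without p21.

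**Figure D3:**
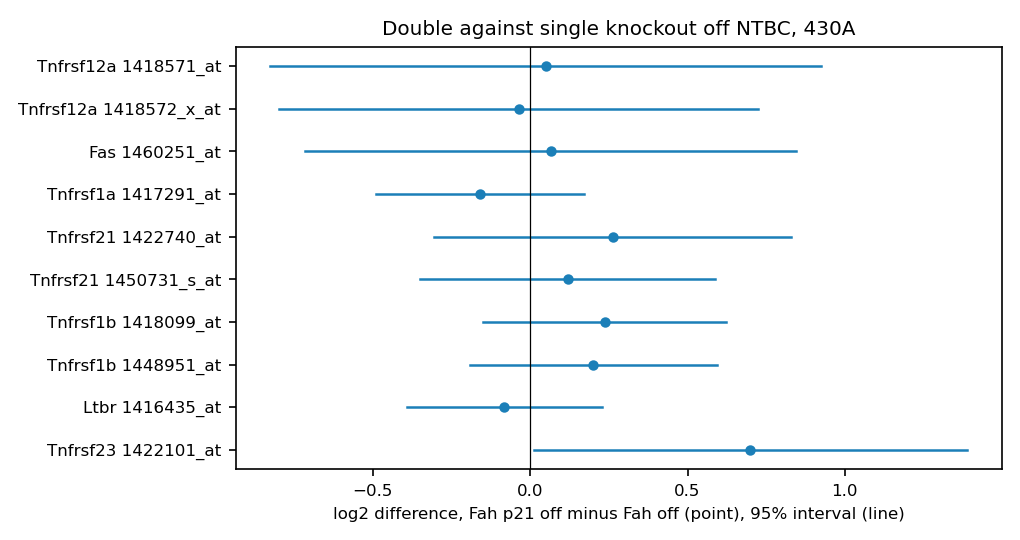
Difference of mean log2(signal + offset) between the 2 double knockout and 3 Fah knockout livers off NTBC on 430A for each receptor probe set tested (point) with its 95% interval (line). All intervals but that of Tnfrsf23, 0.01 to 1.39 before adjustment for the number of probe sets, include 0.

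Within the normal group, the knockout livers on NTBC were set against the wildtype livers, 2 against 2. None of the 10 receptor probe sets passed, where 23 of 15307 (0.15%) did and 2953 had an unadjusted p under 0.05. The Tnfrsf21 probe set 1422740_at, with 232.3 and 288.2 against 141 and 171.1, was higher by 0.70 ± 0.18 (95% interval 0.30 to 1.11) at a limma adjusted p of 0.12. Tnfrsf12a differed by 0.19 ± 0.45 (adjusted p = 0.843) and 0.09 (adjusted p = 0.922). Tnfrsf23 differed by 0.38 (adjusted p = 0.534) and Tnfrsf1a by 0.20 (adjusted p = 0.479). One wildtype mouse drank water and the other received NTBC, so drug and genotype are not separated in this comparison.

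In a whole liver extract, a change in the number of cells of a type and a change in RNA per cell cannot be told apart, and the values of marker genes of several cell types are given beside the receptors. The summed signal of 7 cholangiocyte and progenitor markers was 165.3 to 329.5 in normal livers, 1309.2 to 1392.6 in Fah knockout livers off NTBC and 1240.4 to 1983.5 in double knockout livers. All 5 of these tested passed as higher in both, among them Epcam, Cldn4 and Prom1, where 19.7% and 17.8% of all genes did. The defining keratins Krt7 and Krt19 stayed under the filter level on 430A. Epcam, Sox9 and Prom1 were under that level in every normal liver, so they were tested only through livers in which they were high. Their direction was thus set by the filter, and the count of 5 carries little weight. The summed signal of 7 hepatocyte markers was 97688.7 to 107097 in normal livers, 63811.9 to 70840.8 in Fah knockout livers and 61908.3 to 66593.7 in double knockout livers. Of these markers 7 and 6 of 7 passed as lower, where 16.5% and 11.5% of all genes did.

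Macrophage markers, 10 in all, summed to 6129.9 to 10716.2, 9271.1 to 11352.7 and 12405.9 to 12466.4 in the same order, with 3 and 6 of 10 higher, where 19.7% and 17.8% of all genes were. Stellate cell and matrix markers, 9 in all, summed to 3074.6 to 4030.6, 4766.1 to 6856.1 and 7502 to 8234.2, with 3 and 6 of 9 higher. Of these 9, Lrat, Pdgfrb and Col1a1 were under the filter level in every normal liver on 430A and were tested only through livers off NTBC. Endothelial markers, 8 in all, summed to 2379 to 3356.2, 2027 to 3250.9 and 2850.6 to 3445.9, with 1 of 8 higher in each, Lyve1 in the Fah knockout livers. Of 9 lymphocyte markers 6 did not reach the filter level on 2 arrays, nor did 2 of 6 neutrophil markers, S100a8 and S100a9. None tested passed in either list on 430A. S100a9 reached that level only in normal replicate 4, at 191.7, and the lymphocyte marker Cd79b only in normal replicate 3, at 90.9. On 430 2.0 the cholangiocyte sum was 357.7 in the normal liver and 3047.3 to 3122.2 off NTBC, and the matrix sum 7889.3 against 19047.9 to 19889.3. The hepatocyte sum there was 141726 against 121935 to 123709, with none of 7 passing. The part of these cells in the signal of Tnfrsf12a and the other receptors was not tested.

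Among the other genes of the pathway, no ligand passed in any comparison on 430A. Of all genes there, 36.2% passed in Fah knockout and 29.4% in double knockout livers off NTBC against normal. The share was 0.0435% between double and single knockout livers and 0.174% between NTBC-treated knockouts and wildtype livers. Of 18 ligands listed, 14 had a probe set on 430A and 6 could be tested, so nothing is read from their count. Most, Tnf itself included, did not reach the filter level on 2 arrays. Tnf reached it only in the NTBC-treated Fah knockout liver, at 128.4. Another untested ligand, Tnfsf14, which binds Ltbr, is named after its values were seen. It read 2.5, 3.5, 2.2 and 3.1 in normal livers, 57.9, 28.4 and 68 in Fah knockout livers off NTBC and 7.3 and 4.1 in double knockout livers, all under the filter level and in no fit. For the ligands tested the median difference was -0.29 in Fah knockout and 0.01 in double knockout livers. Tnfsf8, the ligand of the receptor CD30, was at -0.75 ± 0.31 (adjusted p = 0.0823, or 0.0321 with arrays scaled to a common median) and lymphotoxin alpha, Lta, at -0.63 ± 0.32 (adjusted p = 0.148) in Fah knockout livers off NTBC. The TRAIL gene Tnfsf10, whose product binds Tnfrsf10b, was at -1.34 ± 0.43 on 430 2.0 (adjusted p = 0.099, from 0.0222 to 0.226 over the alternatives). Every p on 430 2.0 sets 2 livers against a single normal liver, so the spread comes from the livers off NTBC and from limma's pooling over probe sets, and the normal arm has no replicate. Eda, whose product has an isoform that binds Eda2r, was at -0.27 (adjusted p = 0.458) in double knockout livers on 430A. The TWEAK gene was not read, because its probe sets carry several symbols.

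Of 19 further receptors of the family, 5 could be tested on 430A, and 1 rose in Fah knockout livers, where 36.2% of all genes passed, 19.7% as higher and 16.5% as lower. It was Tnfrsf19, a receptor of embryonic and epithelial cells, at 0.73 ± 0.26 (adjusted p = 0.0455), a call lost in 9 of the alternatives tried. None passed in double knockout livers, against 29.4% of all genes (17.8% higher, 11.5% lower), where the nearest was the neurotrophin receptor Ngfr at 0.58 (adjusted p = 0.0785). On 430 2.0, 9 were tested and none passed, against 14% of all genes (9.11% higher, 4.91% lower).

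Of 20 adaptors and death signalling genes tested in Fah knockout livers off NTBC, 4 rose, 4 fell and 12 did not pass, with a median of -0.03. The share that passed is near the 36.2% of all genes (19.7% higher, 16.5% lower). Bid, the BH3 protein that carries the caspase-8 signal to mitochondria, rose from 69.1, 84.5, 99.4 and 107.6 to 287.5, 320.9 and 264.7, by 1.60 ± 0.17 (adjusted p = 4.41e-05). Casp8 itself rose from 542.7, 473, 617.5 and 590.2 to 1075.5, 1001.4 and 1170.3, by 0.95 ± 0.14 (adjusted p = 0.000296). No normal liver reached the livers off NTBC for either gene. The regulatory IKK subunit Ikbkg rose by 1.26 ± 0.21 (adjusted p = 0.000905), whereas the catalytic subunit Ikbkb fell by 0.83 ± 0.21 (adjusted p = 0.00883). Only 5 genes of the list passed without Fah knockout replicate 2.

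In double knockout livers 4 of the same 20 rose and none fell, beside 17.8% and 11.5% of all genes. Bid, at 201.6 and 189.3, rose by 1.05 ± 0.20 (adjusted p = 0.00244), and Casp8, at 1014.8 and 871.1, by 0.75 ± 0.15 (adjusted p = 0.00405). Ikbkg rose by 0.83 ± 0.24 (adjusted p = 0.0252), a call lost in 5 of the alternatives, up to an adjusted p of 0.28. Map3k14, the NF-kB inducing kinase through which Tnfrsf12a and Ltbr reach the alternative NF-kB pathway, rose by 0.89 ± 0.29 (adjusted p = 0.0373), a call lost in 7 of the alternatives. The rises of Bid and Casp8 were smaller on 430 2.0. Bid read 306.2 in the normal liver there and 364.6 and 383.3 off NTBC, and Casp8 827.3 against 1056.2 and 1171.6. Among 23 genes tested against the single normal liver on 430 2.0, Map3k14 ranked first by p. It read 35.9 in that liver and 203.8 and 148.1 off NTBC, a difference of 2.16 ± 0.42. The list had 2 passing genes on 430A without double knockout replicate 1, and Casp8 was then at an adjusted p of 0.0556.

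Of 9 NF-kB factors and inhibitors tested, 2 passed in Fah knockout livers, beside 36.2% of all genes, with a median of 0.05 over the list. Bcl3, a nuclear partner of NF-kB p50 and p52 dimers, fell from 192.8, 230.5, 273.2 and 389.6 to 99.1, 100 and 56.1, by 1.56 ± 0.27 (adjusted p = 0.00109), and Tnip1, a partner of the inhibitor A20, rose by 0.65 ± 0.18 (adjusted p = 0.0141). In double knockout livers Bcl3 read 134.5 and 209.7 and did not pass. There 2 of 9 rose, beside 17.8% of all genes, Nfkbiz, an inducible nuclear cofactor of NF-kB, from 80.5, 93.4, 70.1 and 101.1 to 210.8 and 213.5, by 1.22 ± 0.27 (adjusted p = 0.00578), and Tnip1 by 0.65 ± 0.20 (adjusted p = 0.031, a call lost in 5 of the alternatives). Without double knockout replicate 2, or without normal replicate 1 or 2, 1 gene of this list passed. Among 11 tested on 430 2.0, Nfkb2, the gene of p100 and p52, ranked first by p, at 1.74 ± 0.44 above the single normal liver.

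**Figure D4:**
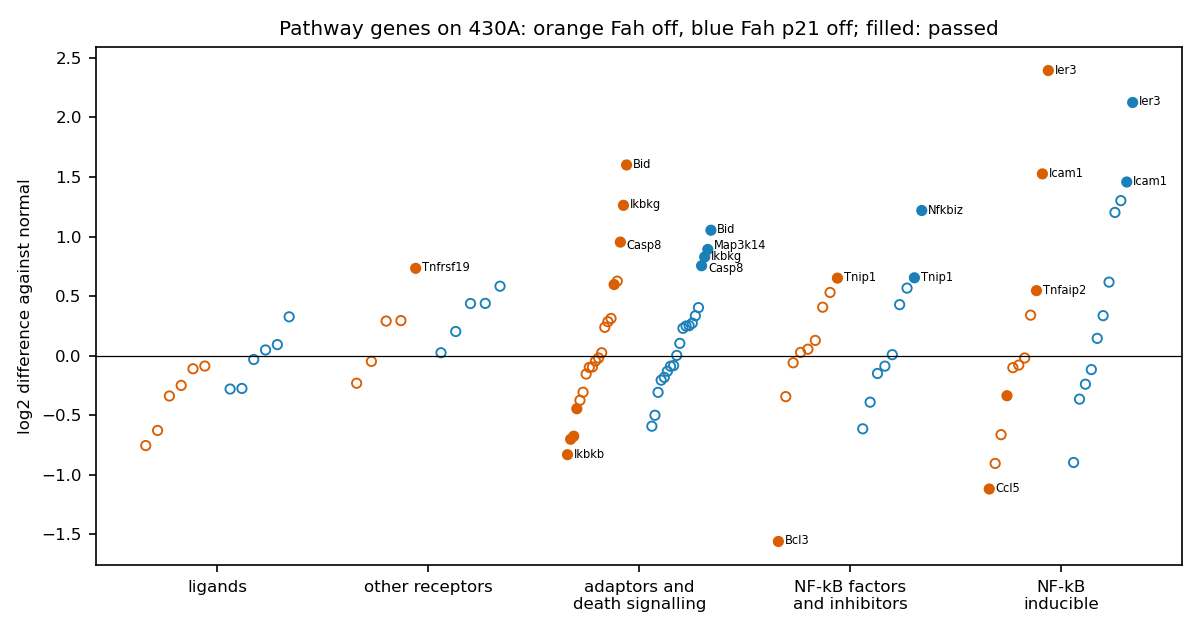
Difference from normal on 430A, on the log2(signal + offset) scale, of each tested gene of the 5 pathway lists, ordered within a list, for Fah knockout (orange) and double knockout (blue) livers off NTBC; filled points passed at a limma adjusted p under 0.05, and those named in the text carry their symbol. The ligands hold no filled point, and Ier3 is the highest gene in both comparisons. All normal values of Ier3 were under the filter level.

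Of 11 genes tested that NF-kB is known to induce, 3 rose and 2 fell in Fah knockout livers, with a median of -0.08, where 19.7% of all genes rose and 16.5% fell. In double knockout livers 2 rose and none fell, with a median of 0.34, where 17.8% of all genes rose and 11.5% fell. Ier3, an early response gene of stress and TNF, rose from 20.3, 39.5, 49 and 72.6 to 253.4, 182.3 and 390.2 in Fah knockout livers, by 2.39 ± 0.33 (adjusted p = 0.000252). It reached 207.1 and 226.2 in double knockout livers, a rise of 2.13 ± 0.38 (adjusted p = 0.00178). All these normal values of Ier3 were under the filter level, so it was tested only through livers off NTBC. Its direction was thus set by the filter. Its p-values here and its place among the 3 and 2 that rose carry little weight. The adhesion molecule Icam1 rose from 115, 85.8, 120.6 and 179.8 to 318.8, 353 and 441.7, by 1.53 ± 0.22 (adjusted p = 0.000343), and to 312.6 and 392.5, by 1.46 ± 0.25 (adjusted p = 0.00152).

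The chemokine Ccl5 fell by 1.12 ± 0.40 in Fah knockout livers (adjusted p = 0.0481), a call lost in 11 of the alternatives tried. Tnfaip2, a TNF-induced gene, rose there by 0.55 ± 0.13 (adjusted p = 0.00815). The list had 3 passing genes in Fah knockout livers when normal replicate 3 or 4 or Fah knockout replicate 1 or 3 was left out, and 4 in double knockout livers without normal replicate 4. Against the single normal liver on 430 2.0, 3 of 12 rose and 1 fell, beside 9.11% and 4.91% of all genes. There Ier3 rose from 34.4 to 414.6 and 302.2, by 3.23 ± 0.37 (adjusted p = 0.0025), and the chemokine Cxcl1 fell by 1.21 ± 0.28 (adjusted p = 0.0359).

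Set against a control of the same genotype alone, the Fah knockout or the double knockout on NTBC, fewer of these genes passed. Fewer probe sets passed over the whole array as well, so the drop is not read as a result about these genes. Each such control is 1 liver. In double knockout livers Bid was then at 0.80 and Ier3 at 1.46, neither past the threshold. Between double and single knockout livers off NTBC no gene of the 5 lists passed, against 0.0435% of all genes. The nearest were the chemokine Ccl2 at 1.52 ± 0.46 (adjusted p = 0.366), Nfkbiz at 0.81 and Bcl3 at 0.95, both at an adjusted p of 0.461. No listed gene passed between NTBC-treated knockouts and wildtype livers either, against 0.174% of all genes.

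**Figure D5:**
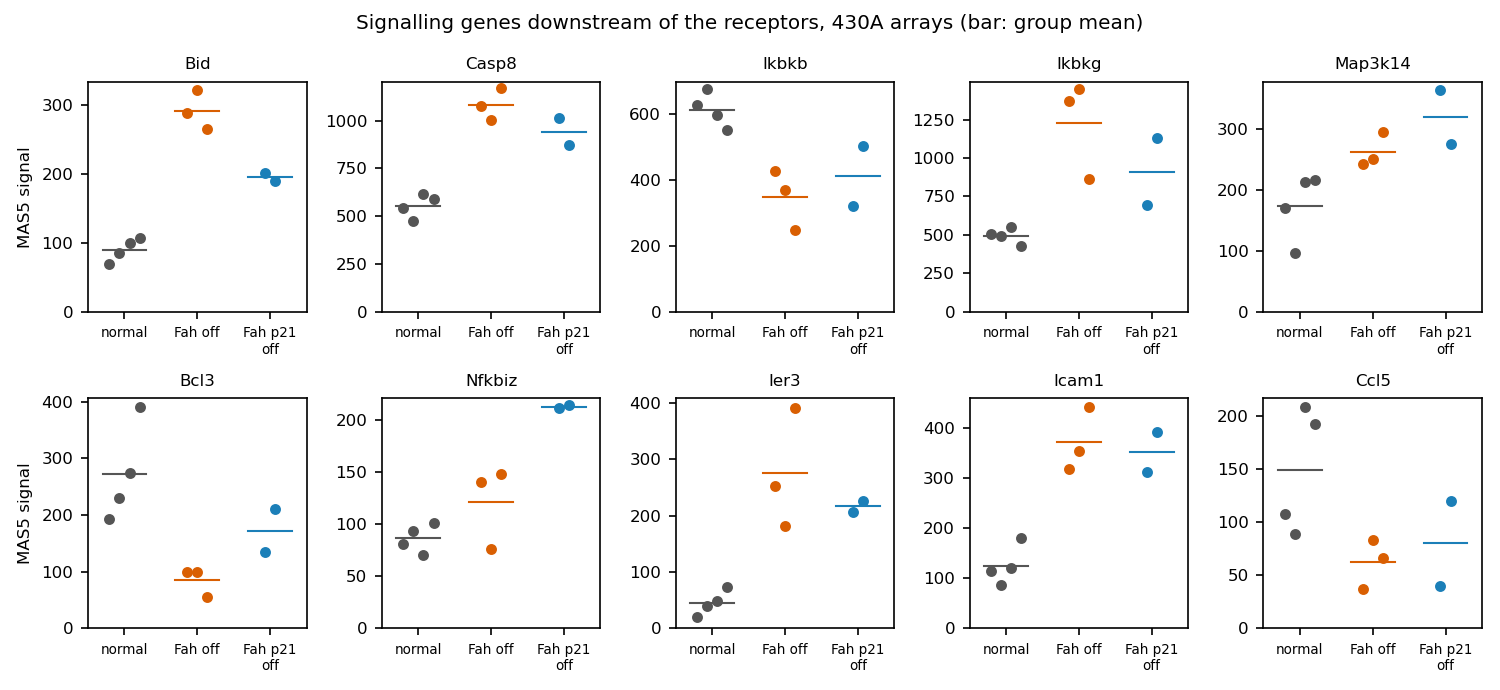
MAS5 signal (linear axis from 0) of 10 signalling and NF-kB genes on each 430A array, with a bar at the group mean, for normal (grey), Fah knockout off NTBC (orange) and double knockout off NTBC (blue) livers. Bid, Casp8, Ier3 and Icam1 lie above all normal livers in both groups off NTBC, while Nfkbiz reaches 210.8 and 213.5 in the double knockout livers.

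The genes whose log2 signal followed the pattern of Tnfrsf12a most closely over the 9 arrays of 430A, among 9053 genes compared by Pearson's r, were Hilpda, Psat1, Cdyl, Bmp8b and Klf6. Hilpda, a lipid droplet protein, had the highest r of 0.9925 and read 59.7 to 65.3 in normal livers, 215 to 304.2 in Fah knockout and 225.2 to 284.3 in double knockout livers off NTBC. Psat1, an enzyme of serine synthesis, had r = 0.9915 and went from 4.1 to 6.3 in normal livers to 934 to 1437.8 and 991.9 to 1182 off NTBC. Klf6, a zinc finger transcription factor, had r = 0.9896 and went from 44.1 to 60.5 to 423.9 to 697.9 and 487.2 to 496.7. The chromatin protein Cdyl and the BMP family ligand Bmp8b both had r = 0.9907. The arrays form 2 clusters, normal and off NTBC, so such an r mainly repeats the gap between them and carries no p.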

How the data were processed

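Liver RNA of 12 mouse samples was measured on Affymetrix arrays, 9 of design 430A and 3 of 430 2.0. The intensity values are the signals the authors deposited, linear and 1 for every probe set of an array. Per the submitters' processing notes, GCOS 1.4.0.036 and MAS5 made them. Signals between the 2nd and 98th percentile averaged 349 to 350 on every array, so all had been scaled to a common level; the number of arrays limits the precision. Groups follow the titles.

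From these signals log2(signal + offset) was computed; the offset was a table's 10th percentile of signal (9.9 on 430A, 3.8 on 430 2.0), which understates folds of dim probe sets. Tested were probe sets that reached the 40th percentile on 2 or more arrays, 15307 and 26925, without 64 controls per design. All arrays of a design entered 1 fit (R 4.3.3 with limma 3.58.1, using lmFit and a trended eBayes), with 6 residual degrees of freedom on 430A and 1 on 430 2.0. Adjusted p-values are Benjamini-Hochberg values over all probe sets tested, at a threshold of 0.05. P-values measure the spread between these livers. The script was tested on simulated data.

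Symbols came from GEO's platform annotation, updated by Entrez identifier through the GRCm38.p6 gene table (20351 and 34741 probe sets matched); 20380 and 34945 probe sets had 1 symbol, 691 and 932 several and 1555 and 9160 none. A listed gene was represented by the probe set whose mean log2 signal was highest. Up to 4 passing genes with the largest change were named per list and comparison, or, where 0 or 1 passed, the 2 genes of smallest p, besides Fah, Cdkn1a and the 5 genes most like Tnfrsf12a; the text gives those that bear on a result. The receptors and the lists of ligands, receptors, adaptors, NF-kB genes and cell markers were chosen with earlier results of these data known. Alternatives covered the filter, offset, scaling, trend, robust fit, replicate block, a genotype-matched control and each array left out. Python 3.11.15, pandas 2.3.3 and matplotlib 3.10.9 searched the promoters and drew the figures.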

Additional observations from a re-analysis of the deposited data

Results flagged for a closer look

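In 2 of 76 probe sets checked, none of them a receptor, 1 of the 4 normal livers stood apart from the others on 430A. Cd68, a macrophage marker, read 262.4 in the Fah, p21 knockout liver on NTBC and 186.5 to 190.9 in the other 3. Cdh5, an endothelial cadherin, read 249.7 in the same liver and 156 to 171.8 in the others. In both the gap to the nearest value exceeded 0.829 of the group's range, Dixon's critical value for 4 samples, which chance passes in about 5% of groups.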

How the results depend on the processing

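The differences of Tnfrsf12a from normal stayed between 4.29 and 7.42 under every alternative run, and on 430A the offset gave both the lowest and the highest values. Those of Tnfrsf21 by 1450731_s_at stayed above 1 and those of both Tnfrsf1b probe sets on 430A below 0. For the differences of receptors from normal, the sign turned only for Fas on 430A, down to -0.42, and for Tnfrsf1a in double knockout livers on 430A, up to 0.08, neither of which had passed. The probe sets passing between Fah knockout livers and normal were 5437, and 2596 with the genotype-matched liver as the only control; with each array left out they were 4315 to 5246. For double knockout livers they were 4353, 1862 with the matched control, and 2533 to 4444 with each array left out, the lowest values being 2533 without double knockout replicate 1 and 2595 without replicate 2. On 430 2.0 the 3101 became 1002 with no filter and 1225 with no intensity trend. Between double and single knockout livers the 6 became 1 with the filter at the 60th percentile, 1 with no offset, 14 with the 25th percentile as offset, 3 with arrays scaled to a common median, 13 with no intensity trend, 2 with the robust fit and 1 to 80 with each array left out, 80 being without double knockout replicate 1. Between knockout and wildtype livers on NTBC or water the 23 became 1 with no filter, 7 with quantile normalization, 42 with a common median, 13 with no intensity trend and 1 to 19 with each array left out, 1 without normal replicate 1 and 10 without normal replicate 2. The cause of these moves was not tested.

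No sign that the replicate numbers pair the livers was found: correlations of same-numbered deviations ran from -0.281 to 0.0713, and 0 of 8 arrays correlated best with its own number. This check cannot decide the question. Deviations of the double knockout livers mirror each other by construction, and normal livers of different number also differ in genotype or drug. With the replicate number as a block, 4463, 3479 and 1 probe sets passed in the 430A comparisons off NTBC. No paired analysis was possible on 430 2.0 because its groups share 1 number, nor between knockout and wildtype livers because each number occurs once there.

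Signs of differences near 0, none past the threshold, turned as follows between double and single knockout livers. Tnfrsf12a by 1418572_x_at was at 0.022 with quantile normalization and 0.19 with the replicate block, and by 1418571_at at -0.12 with a common median; with each array left out the former spanned -0.35 to 0.40 and the latter -0.22 to 0.37. Fas was at -0.088 with quantile normalization and -0.095 with a common median and spanned -0.077 to 0.21. Tnfrsf21 by 1450731_s_at was at -0.047 with a common median and spanned -0.095 to 0.33. Between knockout and wildtype livers, quantile normalization gave -0.029 for Tnfrsf12a by 1418572_x_at and -0.037 for Fas, and a common median gave -0.019 and -0.042 for these, -0.051 for Tnfrsf1a and -0.14 for Tnfrsf1b by 1418099_at. With each array left out, Fas spanned -0.41 to 0.79, Tnfrsf12a by 1418571_at -0.31 to 0.68, Tnfrsf23 -0.048 to 0.81 and Tnfrsf1b by 1448951_at -0.17 to 0.12. Cd40lg in double knockout livers was at -0.29 with the matched control, and Tnfrsf19 spanned -0.79 to 0.12 between knockout and wildtype livers.

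For pathway genes, 686 values under an alternative kept their sign and their side of the threshold, 65 lost it and 7 gained it. Counts of passing genes per list stayed within 1.5 times in 725 values and moved further in 79.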
